A study of Mus musculus with 16 samples.

Results

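The genes described here are 10 imprinted growth regulators of blood stem cells, H19, Igf2, Meg3, Rian, Dlk1, Cdkn1c, Grb10, Peg3, Ndn and Plagl1, chosen by name as imprinted genes with known roles in blood stem cells. The choice was made with earlier results of these data known. All 10 were found among the 55291 rows of the gene count table, and all 10 were among the 22749 genes with enough counts to be tested. RNA was sequenced from LSK cells (lineage-negative, Kit-positive, Sca-1-positive bone-marrow stem and progenitor cells, purified on beads) of 16 C57BL/6 mice, 1 mouse per library, in 4 genotypes of 4 mice. DM mice carried both mutations (Asxl1Y588XTg;SRSF2P95H/+). Asxl1Y588XTg mice carried a transgene for a mutant form of Asxl1, a chromatin regulator of the Polycomb system. Srsf2P95H/+ mice carried a mutation in 1 copy of Srsf2, a splicing factor gene. WT mice carried neither mutation. The sources used here name no promoter for the transgene and no Cre driver, and give neither age nor sex. The design text counts 3 DM mice, but 4 are labelled and have a column of counts, and every one of them entered the fits. The study is about what the Srsf2 mutation adds to the transgene, so the genes are given in each mutant against WT, in DM against each single mutant, and in the interaction.

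An imprinted gene is expressed from the copy inherited from only the mother or only the father, under DNA methylation marks that differ between the parental chromosomes. Many imprinted genes control fetal growth, and several of them are expressed in quiescent adult blood stem cells and fall as the cells divide and differentiate. Some paternally expressed members promote growth (Igf2, Dlk1), though Ndn, also paternally expressed, is a growth suppressor. Maternally expressed members often restrain growth (H19, Cdkn1c, Grb10). Counts per gene do not separate the parental copies, so loss of imprinting cannot be told apart from a change of the active copy here.

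The libraries held 83 to 128 megacounts. LSK identity was checked on Kit, which was at 699 to 1210 CPM (counts per megacount of TMM-scaled library) over all libraries, and on Ly6a, which encodes Sca-1, at 23.2 to 54.3 CPM. Summed with Flt3, Cd34, Cd48 and Ptprc, they ran from 2170 CPM (in Asxl1Y588XTg) to 3110 CPM (in WT). Of these 6, 1 was called lower in DM versus WT (4.73% of all genes were) and 0 higher (4.65%). Markers of neutrophils and monocytes summed to 2890 to 5520 CPM in DM and 886 to 3440 CPM in WT. They summed to 1660 to 4240 CPM in Asxl1Y588XTg and 3430 to 4950 CPM in Srsf2P95H/+. The noncoding RNA Xist, which coats an inactivated X, reached at least 1570 CPM in 5 libraries (DM 1, Asxl1Y588XTg 3, Srsf2P95H/+ 2, Srsf2P95H/+ 3 and WT 1), while the 11 low-Xist libraries had no more than 2.11 CPM. WT 4 stood apart in markers of B cells (summed 132 CPM, against 25.2 to 47.6 CPM in the other WT libraries) and of eosinophils and mast cells (summed 1800 CPM, against 118 to 506 CPM). Results that rest on these libraries are given with and without them.

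Dlk1, Meg3 and Rian, the members that varied most between mice among the 6 with a mean of at least 1 CPM, lie in 1 imprinted domain on chromosome 12 (GRCm38, plus strand). Dlk1 occupies 109452823 to 109463336, Meg3 occupies 109541001 to 109571726 and Rian occupies 109603940 to 109661716. Dlk1 encodes a Notch-related membrane protein and is expressed from the paternal chromosome, whereas Meg3 and Rian are long noncoding RNAs of the maternal chromosome. Their promoters are shown because the 3 genes varied together, and that of Grb10 because Grb10 was the member that passed the test in DM mice. Each stretch is the sense strand from 250 bases before to 50 bases after the RefSeq start (build GRCm38.p6), and 8 of the 10 members had an entry. Meg3 and Grb10 had 2 starts each, of which the upstream one is shown. Capitals mark matches, on either strand, to a cyclic AMP response element (TGACGTCA, in 1.79% of 32851 promoters of the same length), a GATA motif (AGATAAG, 3.04%), an E-box (CACGTG, 7.15%) or a TATA box (TATAAA, 13.6%).
Dlk1, chr12:109452573-109452872 (+): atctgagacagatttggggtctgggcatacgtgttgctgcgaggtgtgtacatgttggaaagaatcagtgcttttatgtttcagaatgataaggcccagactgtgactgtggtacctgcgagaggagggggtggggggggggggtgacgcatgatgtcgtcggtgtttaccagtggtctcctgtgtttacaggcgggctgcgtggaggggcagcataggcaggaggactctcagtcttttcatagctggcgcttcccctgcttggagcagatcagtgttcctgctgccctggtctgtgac
Meg3, chr12:109540746-109541045 (+): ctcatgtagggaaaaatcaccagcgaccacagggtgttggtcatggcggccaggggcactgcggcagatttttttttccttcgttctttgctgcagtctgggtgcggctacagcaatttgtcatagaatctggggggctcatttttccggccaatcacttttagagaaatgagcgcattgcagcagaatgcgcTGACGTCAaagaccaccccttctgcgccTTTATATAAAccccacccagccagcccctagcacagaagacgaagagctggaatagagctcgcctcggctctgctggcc
Rian, chr12:109603695-109603994 (+): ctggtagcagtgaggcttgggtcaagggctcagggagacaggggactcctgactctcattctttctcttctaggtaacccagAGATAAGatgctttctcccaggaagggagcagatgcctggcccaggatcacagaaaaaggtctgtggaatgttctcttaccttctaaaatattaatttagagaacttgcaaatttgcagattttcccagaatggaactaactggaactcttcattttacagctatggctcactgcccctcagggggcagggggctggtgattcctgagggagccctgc
Grb10, chr11:12037371-12037670 (-): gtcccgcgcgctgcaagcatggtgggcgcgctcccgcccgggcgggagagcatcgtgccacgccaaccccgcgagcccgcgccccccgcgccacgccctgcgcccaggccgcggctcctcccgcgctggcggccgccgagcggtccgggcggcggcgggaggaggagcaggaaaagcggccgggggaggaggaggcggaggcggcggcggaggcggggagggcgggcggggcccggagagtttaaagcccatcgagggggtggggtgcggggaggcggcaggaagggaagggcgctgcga

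The upstream Meg3 promoter held 1 cyclic AMP response element and 2 overlapping TATA matches, of which 1 was on the minus strand. The Rian promoter held 1 GATA match and no CpG dinucleotide, and the Dlk1 promoter held none of these motifs and 9 CpG. The upstream Grb10 promoter held 45 CpG, against a median of 7 over all promoters, and 98.1% of promoters held fewer. The other Grb10 promoter held 9 CpG (54.2% held fewer) and the other Meg3 promoter 1 CpG (5.43% held fewer), and neither held any of the motifs. Only the letters given above were searched, so other spellings of a motif were not counted. A match describes the letters and is not a measured binding site.

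The domain and the H19 gene also carry microRNA genes. Between Meg3 and the end of Mirg, a microRNA host RNA, the RefSeq table places 57 microRNA genes with 105 mature products and 97 different seeds. Only 8 seeds were shared, each by 2 products. The examples were picked for their place in the transcripts described here, and the seed (bases 2 to 8) is in capitals. Mmu-miR-127-3p arises opposite Rtl1, a retrotransposon-derived gene of the paternal chromosome, mmu-miR-370-3p lies within Rian, and mmu-miR-410-3p lies within Mirg. The 3p products of miR-379 and miR-411 share the seed AUGUAAC, and both miR-675 products arise from H19.
mmu-miR-127-3p, chr12:109592888-109592909 (+): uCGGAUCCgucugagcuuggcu
mmu-miR-370-3p, chr12:109618305-109618326 (+): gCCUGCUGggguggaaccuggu
mmu-miR-379-3p, chr12:109709102-109709123 (+): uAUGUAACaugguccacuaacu
mmu-miR-411-3p, chr12:109710225-109710246 (+): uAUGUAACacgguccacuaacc
mmu-miR-410-3p, chr12:109743764-109743784 (+): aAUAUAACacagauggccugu
mmu-miR-675-5p, chr7:142577112-142577133 (-): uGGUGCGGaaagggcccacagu
mmu-miR-675-3p, chr7:142577078-142577099 (-): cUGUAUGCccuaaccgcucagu

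These libraries do not measure mature microRNAs. Of the 57 microRNA gene rows of the domain, 29 held any count, with at most 12 counts in a library and 146 in all, and the row of Mir675 held 0 counts.

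Per transcript length, the members spanned a wide range of levels in LSK cells. Grb10 was the most abundant, with a mean over all libraries of 7.48 RPKM (counts per kilobase of exon and megacount). Cdkn1c averaged 1.67 RPKM and Ndn 1.08 RPKM. The domain genes followed, Dlk1 at 0.485, Rian at 0.196 and Meg3 at 0.109 RPKM. H19 averaged 0.0535 RPKM, and Plagl1, Igf2 and Peg3 were at 0.0104, 0.00978 and 0.00928 RPKM. The order ran from a well-expressed adaptor gene to genes with a few counts per library. H19, Igf2, Peg3 and Plagl1 never exceeded 51 counts in a library, so their levels are imprecise. Igf2 had no count in Srsf2P95H/+ 4, which allows up to 3 counts or 0.0309 CPM, for counting error only. Grb10, Cdkn1c and Ndn varied least between mice, with 2.89-fold, 2.55-fold and 2.64-fold between the lowest and the highest of the 16 libraries. Dlk1 varied 27.3-fold, Rian 21-fold and Meg3 17.9-fold.

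**Figure D1:**
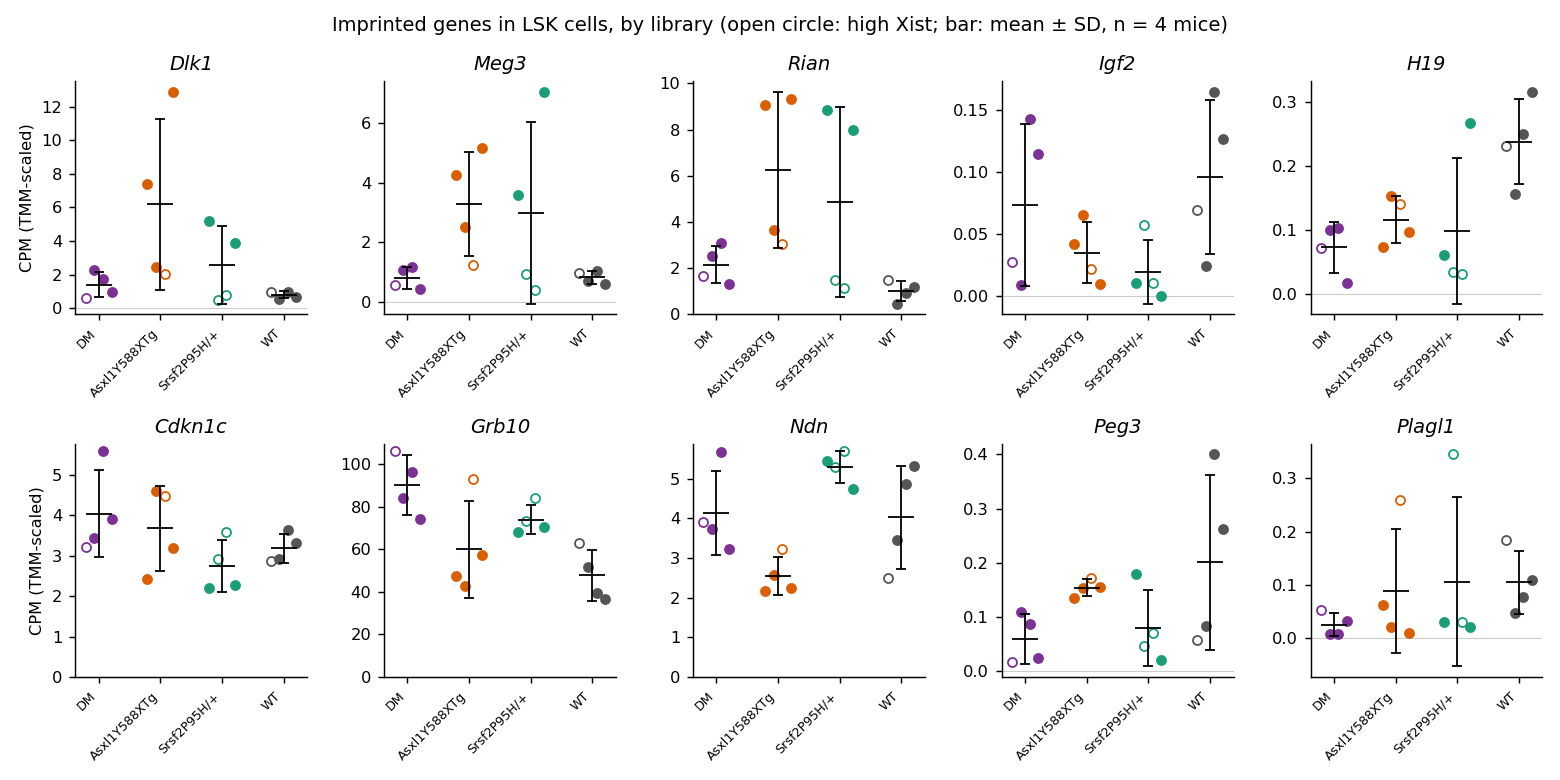
CPM (TMM-scaled, linear axis) of the 10 imprinted genes in each library, in DM, Asxl1Y588XTg, Srsf2P95H/+ and WT mice; points are mice, open points are the 5 libraries with high Xist, and bars give the mean ± SD of 4 mice. All 4 DM points of Grb10 (74.3 to 106 CPM) lie above all 4 WT points (36.8 to 62.7 CPM), and Dlk1, Meg3 and Rian are high in only some mice of the single mutants.

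Dlk1 was at 7.41, 2.44, 2.02 and 12.9 CPM in the 4 Asxl1Y588XTg mice, against 0.981, 0.564, 0.987 and 0.688 CPM in the 4 WT mice. All 4 Asxl1Y588XTg libraries lay above all WT libraries, and replicates 1 and 4 were the highest. The log2 fold change was 2.94 (SE 0.78), and the adjusted p was 0.0661 (edgeR quasi-likelihood test, Benjamini-Hochberg over the 22749 genes), short of the 0.05 used for a call. It was called without Asxl1Y588XTg 2 (3.20, adjusted p = 0.0285) and without Srsf2P95H/+ 2 (2.94, adjusted p = 0.0459). Of 26 runs with other processing or fewer libraries, 20 gave no call (adjusted p up to 0.21). In Srsf2P95H/+ mice Dlk1 was at 5.17, 0.471, 0.789 and 3.90 CPM. Replicates 1 and 4 were above WT and replicates 2 and 3 were within or below the WT range (log2 fold change 1.68, SE 0.75, adjusted p = 0.182). In DM mice it was at 0.630, 2.25, 1.77 and 0.946 CPM, which overlapped WT (0.80, SE 0.74, adjusted p = 0.495). All DM libraries were below 3 of the 4 Asxl1Y588XTg libraries, and replicate 3 of Asxl1Y588XTg fell inside the DM range (DM versus Asxl1Y588XTg, -2.14, SE 0.75, adjusted p = 0.156).

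Meg3, a noncoding RNA that restrains growth in several cell types, followed the same mice. It was at 4.25, 2.53, 1.24 and 5.15 CPM in Asxl1Y588XTg and at 0.981, 0.696, 1.04 and 0.606 CPM in WT mice. The Asxl1Y588XTg libraries again lay above WT without overlap (log2 fold change 1.98, SE 0.70, adjusted p = 0.125). In Srsf2P95H/+ mice the values were 3.58, 0.931, 0.395 and 7.05 CPM, with replicates 1 and 4 high (1.84, SE 0.70, adjusted p = 0.122). In DM mice they were 0.558, 1.07, 1.16 and 0.452 CPM, with replicates 1 and 4 below and replicates 2 and 3 above the WT range (-0.04, SE 0.68, adjusted p = 0.976). All 4 DM libraries lay below all 4 Asxl1Y588XTg libraries (-2.02, SE 0.70, adjusted p = 0.149).

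Rian, which hosts small nucleolar RNAs, was at 9.05, 3.63, 3.02 and 9.31 CPM in Asxl1Y588XTg mice, against 1.47, 0.444, 0.932 and 1.17 CPM in WT mice. The groups did not overlap (log2 fold change 2.64, SE 0.66, adjusted p = 0.0567), and Rian was called without Asxl1Y588XTg 2 (2.83, adjusted p = 0.0271), Srsf2P95H/+ 2 (2.64, adjusted p = 0.0430) or Srsf2P95H/+ 3 (2.64, adjusted p = 0.0369). In Srsf2P95H/+ mice it was at 8.85, 1.49, 1.14 and 8.0 CPM, with replicates 1 and 4 far above every WT library, replicate 2 just above and replicate 3 within the WT range (2.28, SE 0.65, adjusted p = 0.0690). Without replicate 2 it was called (2.58, adjusted p = 0.0379), and in 23 of 26 alternative runs it was not (adjusted p up to 0.208). In DM mice it was at 1.66, 2.53, 3.07 and 1.30 CPM (1.09, SE 0.64, adjusted p = 0.260). Rian in DM lay between the WT range and that of Asxl1Y588XTg, with a slight overlap with each.

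Other genes of the domain were high in nearly the same mice. Rtl1 was at 0.272, 0.120, 0.292 and 0.924 CPM in Asxl1Y588XTg mice and 0.520, 0.0805, 0.0202 and 0.444 CPM in Srsf2P95H/+ mice. In DM it was at 0.108, 0.0729, 0.127 and 0.0740 CPM, and in WT at 0.0231, 0.0240, 0.0627 and 0.0905 CPM. Neither Rtl1 (log2 fold change 2.93, SE 0.82, adjusted p = 0.0680 in Asxl1Y588XTg versus WT) nor Mirg (2.43, SE 0.76, adjusted p = 0.0913) was called in any comparison. Mirg was at 0.377, 0.109, 0.173 and 0.856 CPM in Asxl1Y588XTg, 0.540, 0.0345, 0.0809 and 0.609 CPM in Srsf2P95H/+, and at most 0.137 CPM in DM and 0.0808 CPM in WT mice. The 4 highest libraries were replicates 1 and 4 of Asxl1Y588XTg and of Srsf2P95H/+ for Dlk1, Meg3, Rian and Mirg, and for Rtl1 replicate 3 of Asxl1Y588XTg stood in place of replicate 1. Begain, a gene next to the domain, had another pattern (1.68 to 2.19 CPM in Asxl1Y588XTg and 0.660 to 1.38 CPM in Srsf2P95H/+). Dio3, at the far end of the domain, had at most 4 counts in a library and was not tested.

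**Figure D2:**
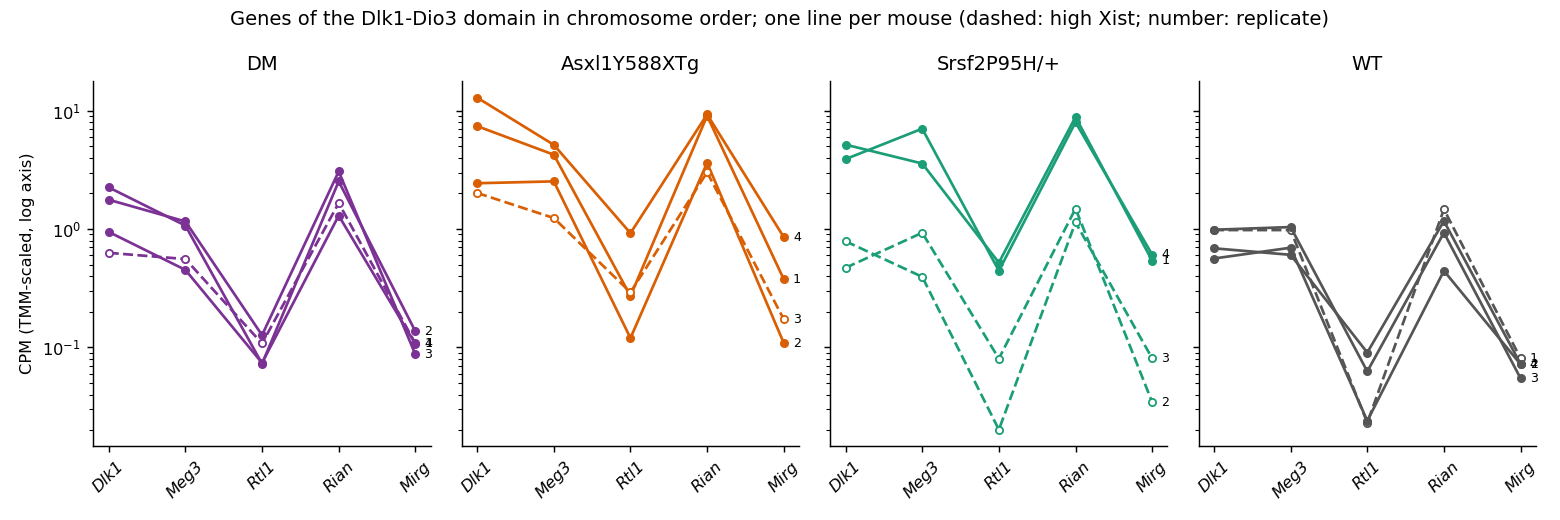
CPM (TMM-scaled, log axis) of Dlk1, Meg3, Rtl1, Rian and Mirg in chromosome order, with 1 line per mouse labelled by replicate number and dashed lines for libraries with high Xist, in DM, Asxl1Y588XTg, Srsf2P95H/+ and WT mice. In Srsf2P95H/+ the lines of replicates 1 and 4 lie above those of replicates 2 and 3 at every gene, and no DM or WT line exceeds 3.07 CPM.

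Over the 16 libraries, log2 CPM of Dlk1 and Rian had a Pearson r of 0.92, that of Dlk1 and Meg3 0.88 and that of Meg3 and Rian 0.88. After subtraction of the group means the values were 0.90, 0.85 and 0.89, so the genes also varied together among mice of the same genotype. Dlk1 had r = 0.91 with Mirg, 0.84 with Rtl1 and -0.09 with Begain. After subtraction of the group means Begain had r = -0.59 with Dlk1, -0.58 with Meg3 and -0.66 with Rian. By contrast the neighbours H19 and Igf2 on chromosome 7 had r = 0.12. These correlations describe 16 libraries that share group means and depth, and no test was made. Reads from Meg3 and Rian may also be counted with the small RNA genes inside them, and Gm26906 overlaps Meg3 on the opposite strand. The strand setting of the counting is not given in the sources used here.

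Genes outside the domain were as highly correlated with these genes. Of 14333 genes with a mean of at least 1 CPM, the most like Meg3 was Sbno2 (r = 0.95), the most like Rian was Luzp1 (0.94) and the most like Dlk1 was Camkk2 (0.93). After subtraction of group means these values were 0.94, 0.96 and 0.94. Stromal cells of the marrow express Dlk1, so stromal markers were set beside it. The 14 stromal genes summed to 112 to 152 CPM in DM, 96.3 to 165 in Asxl1Y588XTg, 92.2 to 277 in Srsf2P95H/+ and 117 to 140 CPM in WT. Their mean log2 CPM had r = -0.13 with Dlk1, 0.09 with Meg3 and 0.14 with Rian, and none was at 0 in all libraries of a group. In DM versus WT 1 of 13 tested was called, Bgn, which was higher (1.36, adjusted p = 0.00089; 4.65% of all genes were higher). Of the 13 fitted changes, 5 were positive and 8 negative (median log2 fold change -0.59, against -0.02 over all genes). There were 7 positive and 6 negative in Asxl1Y588XTg and 6 and 7 in Srsf2P95H/+, each versus WT. In DM there were 3 and 10 versus Asxl1Y588XTg and 2 and 11 versus Srsf2P95H/+. Of the defining genes, Cxcl12 was at 0.100 to 2.29 CPM in DM, 0.214 to 2.46 in Asxl1Y588XTg, 0.240 to 3.99 in Srsf2P95H/+ and 0.321 to 7.65 CPM in WT, and Adipoq was at 0.322 CPM or less throughout and at 0 in some libraries. The highest stromal sum was that of Srsf2P95H/+ 4, a library high in Meg3 and Rian, and Srsf2P95H/+ 1, also high in both, was at 122 CPM. The part of stromal RNA in these levels was not tested. In bulk RNA, fewer cells of a type and less RNA per cell cannot be told apart.

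In the single mutants, the libraries with high Xist were among the low ones for these genes. In Srsf2P95H/+ the high-Xist libraries were at 0.471 and 0.789 CPM of Dlk1, against 3.90 and 5.17 CPM in the low-Xist libraries, and in Asxl1Y588XTg the high-Xist library had the lowest Dlk1 (2.02 CPM), Meg3 (1.24 CPM) and Rian (3.02 CPM) of the group. In DM the high-Xist library had the lowest Dlk1 (0.630 CPM, against 0.946 to 2.25 CPM), while its Meg3 (0.558 CPM) and Rian (1.66 CPM) lay within the range of the other DM libraries. In WT the high-Xist library had 0.981 CPM each of Dlk1 and Meg3, within the range of the others, and the highest Rian (1.47 CPM, against 0.444 to 1.17 CPM). Over the 11 low-Xist libraries alone (3 DM, 3 Asxl1Y588XTg, 2 Srsf2P95H/+ and 3 WT), a fit added after seeing the data called all 3 genes in both single mutants. In Srsf2P95H/+ this fit left out the 2 libraries low in these genes, and in Asxl1Y588XTg the lowest one. Higher estimates therefore followed from the choice of libraries, and the calls are no separate support. In Asxl1Y588XTg versus WT the log2 fold changes were 3.36 for Dlk1 (adjusted p = 0.0145), 2.37 for Meg3 (0.0152) and 3.12 for Rian (0.00842), where 2.76% of genes were called. In Srsf2P95H/+ versus WT they were 2.60 (0.0324), 2.75 (0.0157) and 3.30 (0.0131), where 5.93% of genes were called. The 5 high-Xist libraries, with 1 each in DM, Asxl1Y588XTg and WT, were not fitted on their own. An edgeR fit of all 16 libraries with Xist class as a covariate gave smaller log2 fold changes for all 3 genes than the main fit. Versus WT, Asxl1Y588XTg had 2.57 for Dlk1 (adjusted p = 0.0469, a call), 1.70 for Meg3 (0.114) and 2.41 for Rian (0.0534). Srsf2P95H/+ had 1.41 (0.178), 1.60 (0.124) and 2.07 (0.0856) in the same order. What part Xist class or sex had in these differences was not tested.

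The interaction (DM minus Asxl1Y588XTg minus Srsf2P95H/+ plus WT on the log2 scale) asks whether the effects of both mutations add up. It was -3.82 (SE 1.06) for Dlk1, -3.87 (SE 0.99) for Meg3 and -3.83 (SE 0.91) for Rian, each with an adjusted p of 0.378. The estimates put DM below the sum of the single-mutant effects for each gene, without passing the test. None of the 10 members passed in edgeR, 4 were at an unadjusted p under 0.05 (11.7% of all genes tested were), and 0% of all genes were called. The 4 were Dlk1, Meg3 and Rian, which varied together, and Igf2. With DESeq2, Meg3 (-3.89, adjusted p = 0.0371) and Rian (-3.85, adjusted p = 0.0183) were called, with 0.211% of all genes. In the low-Xist libraries alone Meg3 (-4.93, adjusted p = 0.0165) and Rian (-5.00, adjusted p = 0.0245) were called too, with 0.0553% of all genes. That fit leaves out the Srsf2P95H/+ libraries low in both genes, so it gives no separate support.

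Grb10, at chromosome 11 11930508 to 12038683 (minus strand), encodes an adaptor that binds the insulin and IGF1 receptors and restrains their signalling. It was at 106, 84.0, 96.2 and 74.3 CPM in DM mice, against 62.7, 51.8, 39.5 and 36.8 CPM in WT mice. Every DM library lay above every WT library, and the gene rose 1.89-fold (log2 fold change 0.92, SE 0.22, adjusted p = 0.0247). It was the only member called of the 10 in DM versus WT, where 9.39% of all genes tested were called. The call was lost without WT 3, WT 4, DM 1 or DM 2 in turn (log2 fold change 0.82 to 0.96, adjusted p = 0.0536 to 0.0769) and without both WT 4 and Srsf2P95H/+ 2 (0.81, adjusted p = 0.0767).

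In Srsf2P95H/+ mice Grb10 was at 68.1, 73.2, 83.9 and 70.6 CPM, also above all WT libraries (log2 fold change 0.63, SE 0.22, adjusted p = 0.102). In Asxl1Y588XTg mice it was at 47.3, 42.6, 92.8 and 57.4 CPM, with replicates 1, 2 and 4 within the WT range and replicate 3 above it (0.33, SE 0.22, adjusted p = 0.411). Every DM library was above Asxl1Y588XTg 1, 2 and 4, while Asxl1Y588XTg 3 lay inside the DM range (0.59, SE 0.22, adjusted p = 0.184, and called without that library at 0.88, adjusted p = 0.0317), and DM and Srsf2P95H/+ overlapped (0.29, SE 0.22, adjusted p = 0.956). Over all mice, the 8 carriers of Srsf2P95H/+ were higher than the 8 mice without it by a log2 fold change of 0.61 (SE 0.16, adjusted p = 0.0276; 10.6% of all genes were called). The carriers ran from 68.1 to 106 CPM, and apart from Asxl1Y588XTg 3 every mouse without the mutation was below that range. This pooled comparison uses the same libraries as the pairwise ones. Other processing or fewer libraries ended the call in 10 of 25 runs, with an adjusted p of at most 0.0678 (0.0554 without WT 3, 0.0532 without WT 4 and 0.0678 without DM 1).

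Markers of long-term stem cells were set beside Grb10. Their 18 genes summed to 2160 to 2470 CPM in DM, 1630 to 2110 CPM in Asxl1Y588XTg, 1910 to 2240 CPM in Srsf2P95H/+ and 1860 to 2340 CPM in WT mice, and none was at 0 in all libraries. In DM versus WT, 5 of 18 were called higher (Hoxb5, Esam, Slamf1, Tek and Ctnnal1; 4.65% of all genes were) and 0 lower (4.73%). The mean log2 CPM of the list had r = 0.69 with Grb10 and 0.66 with Cdkn1c over the 16 libraries. Group means were not subtracted here, so differences between groups enter these values. WT 3 had the highest sum of the WT libraries (2340 CPM) and a Grb10 of 39.5 CPM. The gene most like Grb10 was Glce (r = 0.92, and 0.80 after subtraction of group means). The part of stem-cell content in the level of Grb10 was not tested. In each of the 4 groups, every high-Xist library was above every low-Xist library in Grb10 (106 CPM in DM, 92.8 in Asxl1Y588XTg, 73.2 and 83.9 in Srsf2P95H/+ and 62.7 CPM in WT). In the low-Xist libraries alone it was called higher in DM (0.99, adjusted p = 0.00484; 4.27% of genes called) and in Srsf2P95H/+ (0.70, adjusted p = 0.0329), each against WT.

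Cdkn1c, which encodes the cyclin-dependent kinase inhibitor p57 and keeps stem cells quiescent in mice, lies at chromosome 7 143458339 to 143461050. It was at 3.23, 3.44, 5.60 and 3.90 CPM in DM, 2.43, 4.61, 4.48 and 3.20 CPM in Asxl1Y588XTg, 2.20, 2.91, 3.59 and 2.28 CPM in Srsf2P95H/+ and 2.87, 2.93, 3.63 and 3.32 CPM in WT mice. The groups overlapped, and no comparison passed. The largest change was in DM versus Srsf2P95H/+ (log2 fold change 0.56, SE 0.24, adjusted p = 0.668), and in DM versus WT it was 0.34 (SE 0.23, adjusted p = 0.337). Gm44732 overlaps Cdkn1c on the opposite strand. The gene most like Cdkn1c was Vsig10 (r = 0.94, and 0.96 after subtraction of group means).

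Ndn (necdin), a paternally expressed growth suppressor of the MAGE family at chromosome 7 62346569 to 62350262, had fitted changes of opposite sign in the single mutants, neither of them called, and the difference was not tested. It was at 2.16, 2.57, 3.23 and 2.24 CPM in Asxl1Y588XTg mice and at 2.49, 3.46, 4.86 and 5.32 CPM in WT mice (log2 fold change -0.66, SE 0.23, adjusted p = 0.116, and called without WT 1 at -0.83, adjusted p = 0.0395). In that comparison 25 of 26 alternative runs gave no call (adjusted p up to 0.306). Ndn was at 5.45, 5.30, 5.70 and 4.75 CPM in Srsf2P95H/+ mice (0.39, SE 0.23, adjusted p = 0.298) and at 3.92, 3.74, 5.67 and 3.22 CPM in DM mice (0.04, SE 0.23, adjusted p = 0.932). DM and Asxl1Y588XTg overlapped only between 3.22 and 3.23 CPM (0.70, SE 0.23, adjusted p = 0.130). Over all mice Ndn was higher in carriers of Srsf2P95H/+ (0.55, SE 0.16, adjusted p = 0.0421). Other processing or fewer libraries ended that call in 16 of 25 runs (0.45 to 0.59), with an adjusted p of at most 0.125, reached in the low-Xist libraries, where 3.76% of genes were called. The pooled effect of the transgene was -0.51 (SE 0.16, adjusted p = 0.133), and -0.60 without WT 1 (adjusted p = 0.0390). Mipol1 was the gene most like Ndn (r = 0.88, and 0.70 after subtraction of group means).

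H19 and Igf2 are neighbours on chromosome 7 that share control elements, H19 (142575529 to 142578143) a maternally expressed RNA and Igf2 (142650766 to 142666816) a paternally expressed growth factor. H19 was at 0.0720, 0.100, 0.103 and 0.0164 CPM in DM mice, 0.0733, 0.153, 0.141 and 0.0973 CPM in Asxl1Y588XTg, and 0.231, 0.156, 0.251 and 0.317 CPM in WT mice. Both mutant groups lay below all WT libraries, at 2 to 14 counts against 13 to 35 counts (log2 fold change -1.70, SE 0.64, adjusted p = 0.0890 in DM, and -1.04, SE 0.62, adjusted p = 0.350 in Asxl1Y588XTg). In Srsf2P95H/+ mice H19 was at 0.0600, 0.0345, 0.0303 and 0.268 CPM, with replicate 4 within the WT range (-1.27, SE 0.63, adjusted p = 0.216). Without that library H19 was called lower in DM versus WT (-1.70, adjusted p = 0.0475) and in carriers of Srsf2P95H/+ (-1.57, adjusted p = 0.0251, against -0.97 and 0.167 with it). No other of the 25 and 24 alternative runs gave a call (adjusted p up to 0.198 and 0.531). That library held the highest H19 of its group, so a lower estimate in carriers followed from leaving it out. Igf2 was at 0.0270, 0.00912, 0.143 and 0.115 CPM in DM and at 0.0693, 0.0240, 0.165 and 0.127 CPM in WT, and the groups overlapped. It was at 0.0419, 0.0657, 0.0216 and 0.00973 CPM in Asxl1Y588XTg and at 0.0100, 0.0575, 0.0101 and 0 CPM in Srsf2P95H/+ mice, and both groups overlapped WT. In Srsf2P95H/+ mice these were 0 to 5 counts, and the fitted log2 fold change of -2.32 (SE 0.95, adjusted p = 0.142) depends on the prior count. Igf2os overlaps Igf2 on the opposite strand and cannot be told apart from it without strand, and Gm49394 overlaps it on the same strand.

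Peg3 and Plagl1 encode zinc-finger proteins expressed from the paternal copy. Peg3 (chromosome 7 6703892 to 6730431) was at 0.0180, 0.109, 0.0874 and 0.0247 CPM in DM, 0.136, 0.153, 0.173 and 0.156 CPM in Asxl1Y588XTg, 0.180, 0.0460, 0.0708 and 0.0206 CPM in Srsf2P95H/+ and 0.0577, 0.0840, 0.400 and 0.262 CPM in WT mice. All DM libraries were below all Asxl1Y588XTg libraries (log2 fold change -1.35, SE 0.71, adjusted p = 0.332), at 2 to 12 counts against 13 to 16 counts. The comparison of DM with WT gave -1.75 (SE 0.70, adjusted p = 0.107). Plagl1 (chromosome 10 13060504 to 13131694) was at 0.0540, 0.00912, 0.00795 and 0.0329 CPM in DM, 0.0628, 0.0219, 0.260 and 0.00973 CPM in Asxl1Y588XTg, 0.0300, 0.345, 0.0303 and 0.0206 CPM in Srsf2P95H/+ and 0.185, 0.0480, 0.0783 and 0.109 CPM in WT mice. The groups overlapped in every pairwise comparison, at 1 to 30 counts, and the log2 fold change in DM versus WT was -1.97 (SE 1.05, adjusted p = 0.211).

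**Figure D3:**
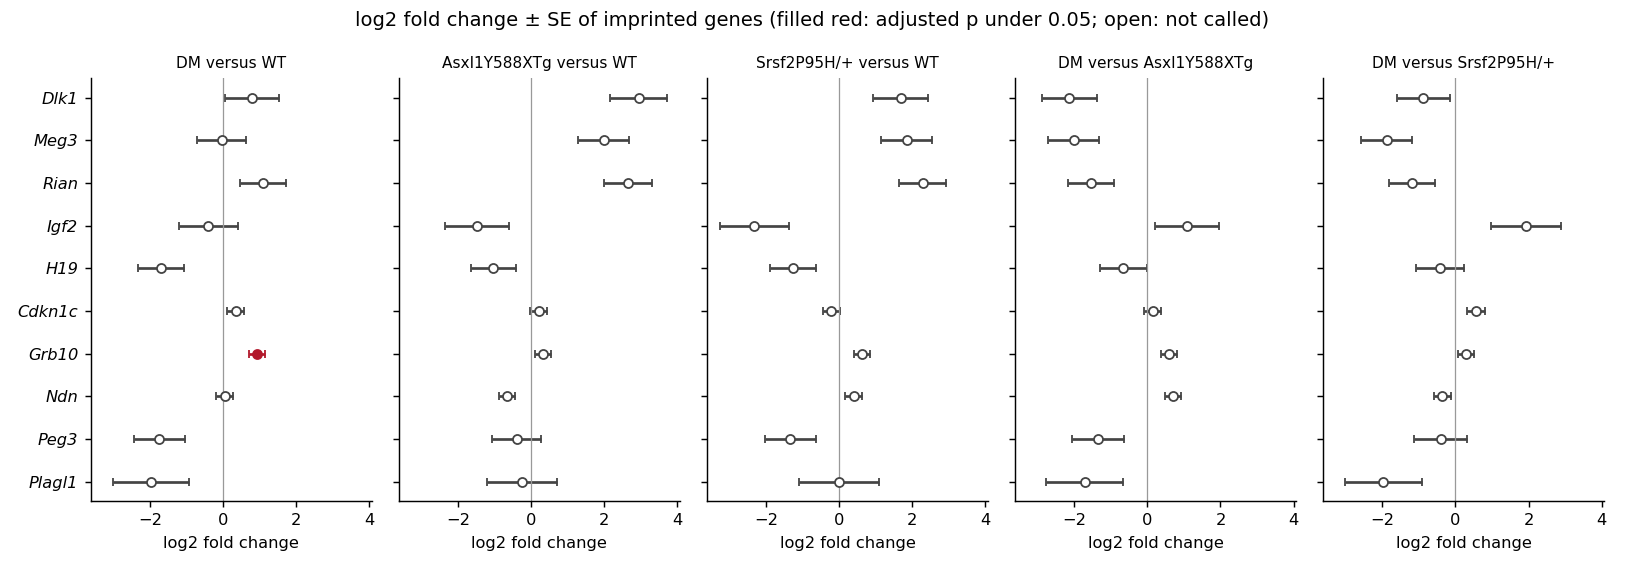
log2 fold changes (points) with standard errors (bars) of the 10 genes in DM versus WT, Asxl1Y588XTg versus WT, Srsf2P95H/+ versus WT, DM versus Asxl1Y588XTg and DM versus Srsf2P95H/+; the filled point passed an adjusted p of 0.05. Grb10 in DM versus WT (0.92) is the filled point, and Dlk1, Meg3 and Rian lie to the right in both single mutants against WT and to the left in DM against each single mutant.

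Counted over the 10 members, 1 was called in DM versus WT and 2, Grb10 and Ndn, in the pooled Srsf2P95H/+ effect. DESeq2 called the same genes there (16.9% and 16.6% of all genes), and 3 and 4 members were at an unadjusted p under 0.05 (30.6% and 29.1% of all genes). None was called in Asxl1Y588XTg versus WT, where 1.88% of all genes were called, in Srsf2P95H/+ versus WT (0.506%), in DM versus Asxl1Y588XTg (1.08%), in DM versus Srsf2P95H/+ (0.246%) or in the pooled effect of the transgene (1.85%). At an unadjusted p under 0.05 there were 4 members in Asxl1Y588XTg versus WT (21.5% of all genes), 5 in Srsf2P95H/+ versus WT (25.3%), 5 in DM versus Asxl1Y588XTg (17.8%), 2 in DM versus Srsf2P95H/+ (6.48%) and 2 in the pooled transgene effect (15.4%). DESeq2 called 2 members in Asxl1Y588XTg versus WT (Dlk1 and Rian; 7.97% of all genes), 2 in Srsf2P95H/+ versus WT (Grb10 and Rian; 11.1%), 1 in DM versus Asxl1Y588XTg (Ndn; 4.95%), 0 in DM versus Srsf2P95H/+ (1%) and 1 in the pooled transgene effect (Ndn; 4.72%). The groups did not overlap for 4 of 10 members in Asxl1Y588XTg versus WT (8.98% of all genes), 1 in Srsf2P95H/+ versus WT (13.7%), 2 in DM versus WT (18.6%), 2 in DM versus Asxl1Y588XTg (11.5%) and 0 in DM versus Srsf2P95H/+ (4.28%). In Asxl1Y588XTg versus WT 3 lay above WT, Dlk1, Meg3 and Rian of 1 domain, and 1 below, H19 at 7 to 14 counts. These 3 domain genes were also among the unadjusted counts in each single mutant versus WT and in DM versus Asxl1Y588XTg. As they varied together, they are not separate genes to set against a share of all genes. The median log2 fold change of the members was -0.02 in Asxl1Y588XTg versus WT, 0.20 in Srsf2P95H/+ versus WT and 0 in DM versus WT, against -0.04, -0.05 and -0.02 over all genes. Of the 10 fitted changes, 5 were positive and 5 negative in Asxl1Y588XTg versus WT.

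Other imprinted genes were measured from a list of 51, of which 50 were in the table and 40 were tested. In DM versus WT, 5 were called lower (4.73% of all genes were) and 1 higher (4.65%). Mest, a paternally expressed hydrolase-like gene of fetal growth (chromosome 6), fell to 1.06, 0.893, 1.45 and 0.962 CPM in DM, against 2.25, 2.35, 2.33 and 2.13 CPM in WT mice. It changed by -1.05 on the log2 scale (SE 0.21, adjusted p = 0.0103), and all 26 alternative runs kept that call. Asxl1Y588XTg (1.05 to 1.71 CPM) and Srsf2P95H/+ (1.30 to 1.82 CPM) were also below all WT libraries, without a call (-0.59, adjusted p = 0.126, and -0.52, adjusted p = 0.139). Airn, the antisense RNA that silences the paternal copy of Igf2r (the clearance receptor of IGF2), fell to 0.477 to 1.10 CPM in DM and 0.263 to 1.08 CPM in Asxl1Y588XTg, against 1.22 to 2.18 CPM in WT mice. Its log2 fold changes were -1.35 (SE 0.38, adjusted p = 0.0376) and -1.68 (SE 0.39, adjusted p = 0.0366), and in the second comparison it was the only one of the 40 that passed (1.88% of all genes did). Igf2r itself did not pass in either (-0.22, adjusted p = 0.631, and -1.06, adjusted p = 0.0715). Of 26 alternative runs, 7 ended the call of Airn in DM (adjusted p up to 0.118) and 8 that in Asxl1Y588XTg (up to 0.132). In Srsf2P95H/+ mice Airn was at 0.688 to 1.08 CPM, also below all WT libraries, without a call (-1, SE 0.38, adjusted p = 0.118). Airn overlaps part of Igf2r on the opposite strand, so their reads cannot be told apart without strand.

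Mcts2, a retrogene within H13, fell in DM versus WT as well (-0.77, SE 0.19, adjusted p = 0.0236). Begain was at 1.01, 1.18, 1.13 and 0.995 CPM in DM mice, against 1.72, 1.79, 2.30 and 2.0 CPM in WT mice (-0.86, SE 0.22, adjusted p = 0.0260). Kcnq1ot1, the silencing RNA of the Cdkn1c domain, also fell (-0.46, adjusted p = 0.0410), and Nap1l4, a histone chaperone gene, was the 1 that rose (0.21, adjusted p = 0.0409). Of 26 alternative runs, 7 ended the call of Mcts2 in DM versus WT, 6 that of Begain, 11 that of Kcnq1ot1 and 12 that of Nap1l4. Over all mice Begain was lower in carriers of Srsf2P95H/+ (-0.87, SE 0.15, adjusted p = 0.00536), a call that held in all 25 alternative runs. In that pooled comparison 4 of 40 imprinted genes were called lower (4.07% of all genes) and 2 higher (6.57%). Nap1l4 rose (0.18, adjusted p = 0.0180), and Kcnq1ot1 (-0.38, adjusted p = 0.0209) and the phosphatase gene Inpp5f (-0.22, adjusted p = 0.0296) fell, with 5, 1 and 7 of 25 alternative runs ending these calls. Of the 40, edgeR called 0 in Srsf2P95H/+ versus WT (0.506% of all genes), with 13 at an unadjusted p under 0.05 (25.3%) and 4 by DESeq2 (11.1%). It called 0 in DM versus Asxl1Y588XTg (1.08%), with 13 unadjusted (17.8%) and 3 by DESeq2 (4.95%). It called 0 in DM versus Srsf2P95H/+ (0.246%), with 2 unadjusted (6.48%) and 0 by DESeq2 (1%), and 0 in the pooled transgene effect (1.85%), with 8 unadjusted (15.4%) and 4 by DESeq2 (4.72%).

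**Figure D4:**
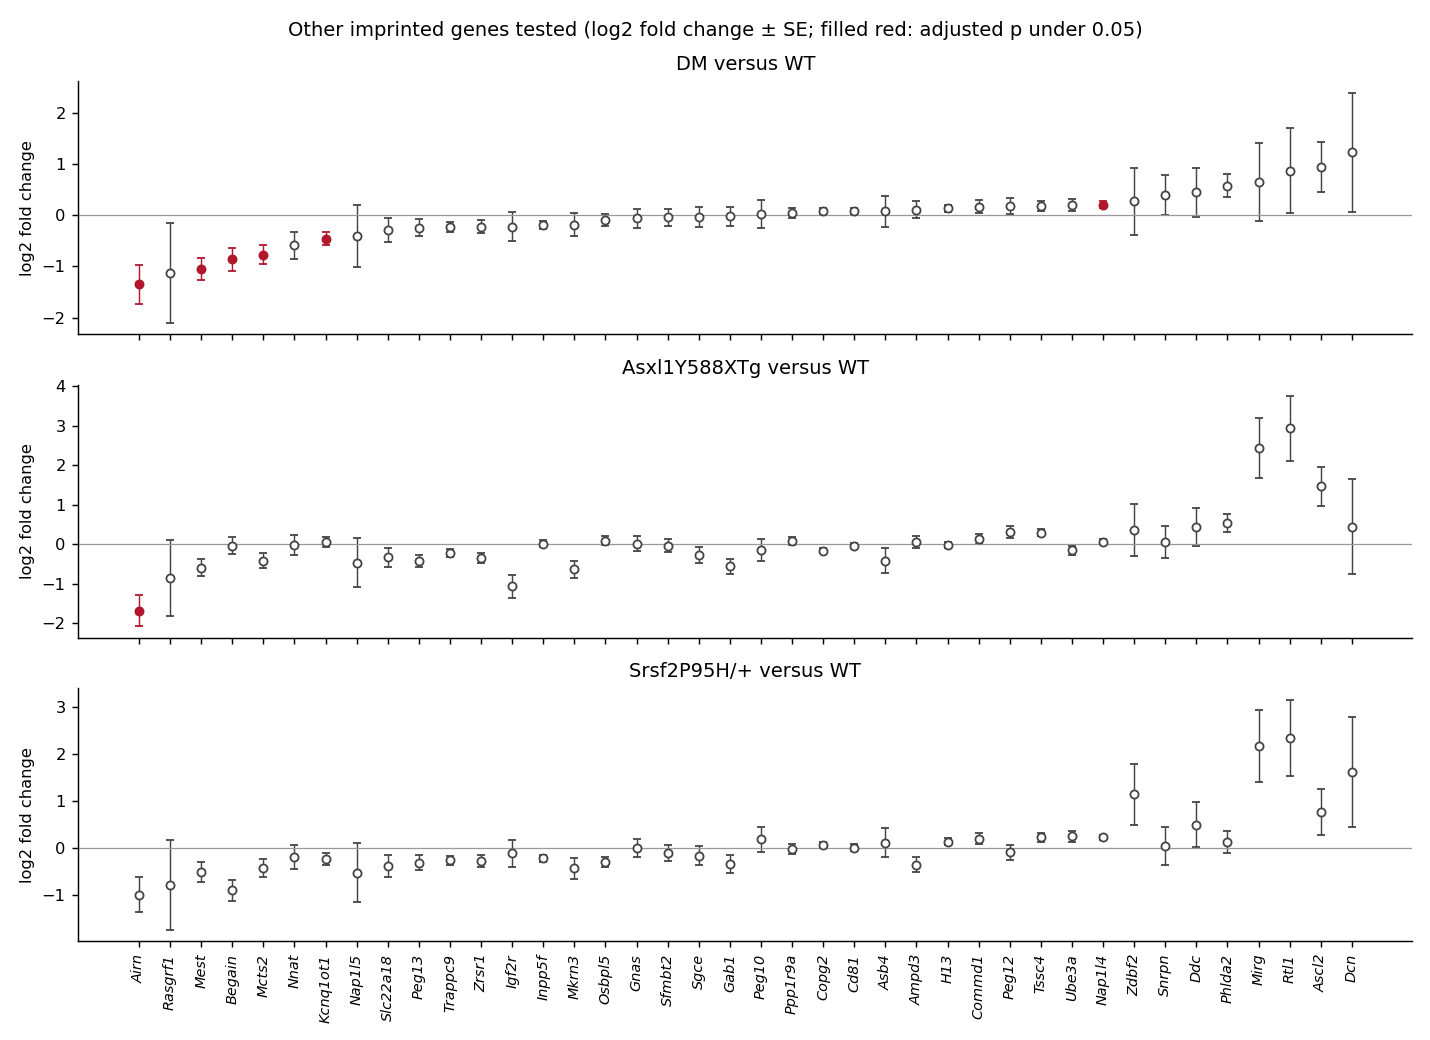
log2 fold changes (points) with standard errors (bars) of the 40 other imprinted genes tested, in DM versus WT (upper), Asxl1Y588XTg versus WT (middle) and Srsf2P95H/+ versus WT (lower), all in the order of their DM versus WT values; filled points passed an adjusted p of 0.05. Airn (-1.35) and Mest (-1.05) are among the filled points at the left of the upper plot, and Rtl1 and Mirg stand highest in the single mutants without passing.

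Genes around the members were set beside them from lists of IGF signalling, cell-cycle, imprint maintenance and regulator genes. Plag1, a zinc-finger activator of Igf2 and a relative of Plagl1, fell to 3.16, 1.94, 4.55 and 1.97 CPM in DM and 2.76, 4.53, 5.44 and 3.28 CPM in Asxl1Y588XTg, against 8.95, 11.3, 14.4 and 21.1 CPM in WT mice. The groups did not overlap, and the log2 fold changes were -2.26 (SE 0.32, adjusted p = 0.00155) and -1.80 (SE 0.32, adjusted p = 0.0100), each called in all 26 alternative runs. In Srsf2P95H/+ mice Plag1 was at 4.82, 5.48, 8.37 and 5.93 CPM, also below all WT libraries, without a call. Hmga2, a chromatin protein of fetal stem cells that acts upstream of the IGF2 system, was at 3.74, 7.78, 6.83 and 3.43 CPM in Asxl1Y588XTg, against 19.8 to 26.4 CPM in WT mice (-2.02, SE 0.27, adjusted p = 0.00194). In DM mice it was at 8.48 to 18.8 CPM, above all Asxl1Y588XTg libraries (1.37, SE 0.27, adjusted p = 0.0269), though this call was lost in 9 of 26 alternative runs. Of the 9 regulators tested, Gfi1, a repressor of stem-cell proliferation, was the only one called higher in DM versus WT (0.46, adjusted p = 0.0445; 4.65% of all genes were), and that call was lost in 15 of 26 alternative runs. In carriers of Srsf2P95H/+ 3 of the 9 were called higher (6.57% of all genes were), Gfi1 (0.45, adjusted p = 0.0118), Hmga2 (0.87, adjusted p = 0.0128) and the zinc-finger gene Yy1 (0.14, adjusted p = 0.0372, lost in 14 of 25 alternative runs), and Plag1 was called lower (-0.82, adjusted p = 0.0296, lost in 9 of 25 alternative runs; 4.07% of all genes were). In the pooled transgene effect 2 of the 9 were called lower (1.85% of all genes were called). These were Hmga2 (-1.52, adjusted p = 0.000373) and Plag1 (-1.44, adjusted p = 0.00175), each called in all 25 alternative runs. The same 2 were the regulators called in Asxl1Y588XTg versus WT, both lower (1.88% of all genes were called).

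Of the 21 IGF signalling genes tested, 0 passed in DM versus WT with edgeR (9.39% of all genes did), with 5 at an unadjusted p under 0.05 (30.6%) and 3 by DESeq2 (16.9%). In Asxl1Y588XTg versus WT 1 was called (1.88% of all genes were), Pik3r1, a regulatory subunit of PI3 kinase, which was lower (-0.28, adjusted p = 0.0311, lost in 12 of 26 alternative runs). It was also lower in the pooled transgene effect (-0.18, adjusted p = 0.0469, lost in 19 of 25 alternative runs). Irs1, a docking protein of the IGF1 and insulin receptors, was at 0.0619 to 0.103 CPM in Srsf2P95H/+ and 0.0987 to 0.556 CPM in DM mice, and at 0.405 to 0.974 CPM in Asxl1Y588XTg and 0.0720 to 0.404 CPM in WT mice. Its pooled effects were 1.63 for the transgene (SE 0.38, adjusted p = 0.0329) and -1.46 for Srsf2P95H/+ (SE 0.38, adjusted p = 0.0256), at 6 to 90 counts per library, and 13 and 5 of 24 alternative runs ended these calls. The receptor gene Igf1r was at 329 to 361 CPM in DM, 300 to 371 CPM in Asxl1Y588XTg, 294 to 415 CPM in Srsf2P95H/+ and 316 to 372 CPM in WT mice and was not called. Among 19 cell-cycle genes tested, Rbl1, a relative of the retinoblastoma gene, was the 1 called in DM versus WT (9.39% of all genes were) and rose (0.34, adjusted p = 0.0318, lost in 7 of 26 alternative runs). Its relative Rbl2 was the 1 called in Asxl1Y588XTg versus WT (1.88%) and fell (-0.36, adjusted p = 0.0366, lost in 13 of 26 alternative runs). Ccnd1 (cyclin D1) was the 1 called in the pooled transgene effect (1.85%) and rose (0.60, SE 0.10, adjusted p = 0.00346). In carriers of Srsf2P95H/+ 2 were called higher (6.57%), Ccne2 (cyclin E2, 0.44, adjusted p = 0.0280) and Rbl1 (0.24, adjusted p = 0.0298), and 7 and 11 of 25 alternative runs ended these calls. Among 21 imprint maintenance and Polycomb genes tested, Tet1, an enzyme of DNA demethylation, fell in DM (-0.39, adjusted p = 0.0255) and in Asxl1Y588XTg (-0.44, adjusted p = 0.0327) versus WT, and 7 and 14 of 26 alternative runs ended these calls. Tet3, another such enzyme, fell in DM versus WT (-0.20, adjusted p = 0.0455, lost in 17 of 26 alternative runs) and in carriers of Srsf2P95H/+ (-0.15, adjusted p = 0.0336, lost in 8 of 25). That made 2 of 21 called lower in DM (4.73% of all genes were) and 1 of 21 called in Asxl1Y588XTg (1.88%). Ezh2 and Suz12, subunits of Polycomb repressive complex PRC2, were higher in carriers of Srsf2P95H/+ (each 0.26, adjusted p = 0.0157 and 0.0346; 6.57% of all genes were higher), though for Suz12 13 of 25 alternative runs ended the call.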

How the data were processed

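Gene counts for 16 libraries, 1 per mouse, were taken as deposited by the authors. Per the submitters' processing notes the tools were FastQC, Trimmomatic 0.38, STAR 2.7.0e and HTSeq 0.11.2 on mm10 (gene models and strand handling not given in the sources used here). Per the labels' protocols, RNA came from individual mice and was sequenced as paired ends. Libraries held 83 to 128 megacounts.

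Raw counts were fitted in edgeR 4.0.16 (R 4.3.3; quasi-likelihood, robust; TMM; filterByExpr with a minimum count of 10) with the 4 group means over all 16 libraries, and 22749 of 55291 genes were tested. Benjamini-Hochberg adjustment ran over all genes of a comparison, and genes under 0.05 were called; every adjusted p is from this two-sided fit unless DESeq2 1.42.0 or another fit is named. CPM used TMM-scaled totals, log2 CPM a prior count of 2, and RPKM the summed exon length in GENCODE release M21 (GRCm38). Each SE is the absolute log2 fold change divided by the square root of the quasi-likelihood F statistic, and is approximate. The procedure was run on simulated counts, with changes placed only in genes with a mean of at least 1 CPM. That run does not cover H19, Igf2, Peg3 and Plagl1. Alternatives were DESeq2, other scalings and filters, a replicate block, an Xist covariate and left-out libraries.

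The 10 genes and all lists were chosen with earlier results of these data known. The text names all 10 genes, for each with a mean of at least 1 CPM the tested gene most correlated with it, and from each further gene list the called genes, at most 4 per comparison by p-value (cell-type marker lists are given by counts and levels), plus Plag1 and Hmga2; Rtl1, Mirg, Igf2r and Igf1r were added as neighbours or partners, after their values were seen. A called gene of the IGF signalling list is not reported here.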

Additional observations from a re-analysis of the deposited data

Results flagged for a closer look

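Of 40 gene and group combinations examined with Dixon's ratio, 2 had a sample far from the others of its group, and chance alone flags about 1 in 20. H19 was at 0.268 CPM in Srsf2P95H/+ 4, where the other Srsf2P95H/+ libraries were at 0.0303 to 0.0600 CPM (ratio 0.875, above Dixon's critical value for groups of 4). Plagl1 was at 0.345 CPM in Srsf2P95H/+ 2, where the others were at 0.0206 to 0.0303 CPM (ratio 0.970).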

How the results depend on the processing

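Across the alternatives no fold change that was tried for a named gene reversed its direction. The number of the 10 members called, as fitted, was 0 in Asxl1Y588XTg versus WT, Srsf2P95H/+ versus WT, DM versus Asxl1Y588XTg, DM versus Srsf2P95H/+, the interaction and the pooled transgene effect, 1 in DM versus WT and 2 in the pooled Srsf2P95H/+ effect. With DESeq2 it was 2 in Asxl1Y588XTg versus WT, 2 in Srsf2P95H/+ versus WT, 1 in DM versus Asxl1Y588XTg, 2 in the interaction and 1 in the pooled transgene effect. With a filter of 1 CPM in 4 libraries it was 2 in Asxl1Y588XTg versus WT and 1 in the pooled Srsf2P95H/+ effect. With Xist as a covariate it was 1 in Asxl1Y588XTg versus WT, 1 in DM versus Asxl1Y588XTg and 1 in the pooled Srsf2P95H/+ effect, which also had 1 with scaling by library size only and 0 with no filter. Chosen after seeing the data, the fit without both WT 4 and Srsf2P95H/+ 2 called 0 in DM versus WT and 1 in the pooled Srsf2P95H/+ effect, and the fit of low-Xist libraries called 3 in Asxl1Y588XTg versus WT, 4 in Srsf2P95H/+ versus WT, 2 in the interaction and 1 in the pooled Srsf2P95H/+ effect. Leaving out 1 library at a time gave 0 to 2 in Asxl1Y588XTg versus WT, 0 to 1 in Srsf2P95H/+ versus WT, 0 to 2 in DM versus WT, 0 to 1 in DM versus Asxl1Y588XTg, 0 to 1 in the pooled transgene effect and 0 to 3 in the pooled Srsf2P95H/+ effect. The cause of these changes was not tested. Fits of the compared groups alone give no value for the interaction and the pooled effects.

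Same-numbered mice did not deviate together (r -0.293 to 0.295 over 24 pairs, with 3 of 16 libraries closest to their own number), so they were not treated as paired. With the number as a replicate block, 1 member was called in Asxl1Y588XTg versus WT (Rian, log2 fold change 2.58, adjusted p = 0.0458), and no other count of members changed. Scaling by library size only put the median log2 fold change of all genes at -0.16 in Srsf2P95H/+ versus WT, -0.12 in DM versus WT and -0.11 in the pooled Srsf2P95H/+ effect, against -0.05, -0.02 and -0.02 with TMM. H19, Igf2, Peg3 and Plagl1, at 0 to 51 counts per library, are limited by depth.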
